A study of Saccharomyces cerevisiae with 6 samples.

Results

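The large subunit of the yeast ribosome is built from ribosomal RNA and a set of proteins, most of them encoded by a pair of closely similar genes, called the A and the B copy. Features were taken as members where the gene symbol began with RPL and a number, or with RPP and 0, 1 or 2. Of the 5703 features in the deposited tables, 76 matched. RPP1 is one of these 76 by its name but encodes a subunit of the RNA-processing enzymes RNase P and RNase MRP and no ribosomal protein, so it is described apart. The other 75 features encode 42 large-subunit proteins, counting the products of a pair as 1, with 33 from a pair of copies and 9 from a single gene. They lie on 14 nuclear chromosomes, and none lies on the neochromosome.

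Polyadenylated RNA was sequenced from 3 cultures each of 2 Saccharomyces cerevisiae strains. IMF17 expresses the genes of glycolysis exclusively from a neochromosome, an added synthetic chromosome, whereas IMX2109 expresses glycolysis from its native genome. Both strains were grown aerobically in 100 mL of selective minimal medium with glucose in 500 mL shake flasks, and 3 cultures of each were sampled in mid-exponential phase, when the optical density (660 nm) had reached 8. Each genotype was represented by 1 strain, and other genetic differences between the strains are not known from the sources used here. Between 14696540 and 18801158 reads were counted per library, and the fewest reads on any of the 75 genes in any library were 661. Within IMX2109, replicate 3 stood apart, as the lowest of the 3 libraries for 71 of the 75 genes, and replicate 1 was the highest for 61, so values without replicate 3 are given where they change a call for any of the 75 genes.

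Ribosomal protein genes are among the most strongly transcribed genes of a growing yeast cell, and their joint transcription follows nutrient supply and growth rate through the TOR and protein kinase A pathways. Rap1, Fhl1, Ifh1 and Sfp1 are among the proteins that act at their promoters. Large-subunit proteins bind rRNA in the nucleolus and nucleus during assembly, and several are carried there by a dedicated chaperone. In the finished particle they stabilise the catalytic centre, line the tunnel through which the new chain leaves, and form the stalk that recruits translation factors.

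Because so much of what follows compares a pair of copies, the coding sequences of the copies are shown first, with the bases at which they differ in capitals. They were read from the RefSeq R64 reference (strain S288C), not from the assembly of these strains. Each line holds the 60 consecutive coding bases with the most differences between the copies. The first 4 pairs are those whose copies changed most unequally, and RPL35 is shown as a pair whose copies are nearly the same.
RPL8A: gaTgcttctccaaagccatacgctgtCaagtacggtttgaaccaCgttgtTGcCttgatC
RPL8B: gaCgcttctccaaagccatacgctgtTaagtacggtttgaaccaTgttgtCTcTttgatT
RPL15A: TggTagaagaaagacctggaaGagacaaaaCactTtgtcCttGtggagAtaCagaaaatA
RPL15B: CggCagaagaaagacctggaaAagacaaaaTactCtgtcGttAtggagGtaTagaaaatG
RPL7A: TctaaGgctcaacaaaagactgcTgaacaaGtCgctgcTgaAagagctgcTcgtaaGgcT
RPL7B: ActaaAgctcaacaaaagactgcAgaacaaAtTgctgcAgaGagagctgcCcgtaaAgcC
RPL9A: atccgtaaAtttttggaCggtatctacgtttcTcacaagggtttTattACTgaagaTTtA
RPL9B: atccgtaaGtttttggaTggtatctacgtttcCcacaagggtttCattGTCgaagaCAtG
RPL35A: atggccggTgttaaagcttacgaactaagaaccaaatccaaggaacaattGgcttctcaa
RPL35B: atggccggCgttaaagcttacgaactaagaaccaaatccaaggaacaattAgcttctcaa

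Over whole coding sequences, the 33 pairs were 69.2 to 99.4% identical, with a median of 93.2%, and in 10 pairs the encoded proteins were identical. In 21 pairs no stretch of 100 coding bases was shared by both copies. In 4 pairs, RPL1, RPL4, RPL11 and RPL35, more than 50% of such stretches were shared. Neither the read length nor the handling of ambiguous reads is known from the sources used here, so the split of reads between copies is uncertain. It is most so in those 4 pairs, but 12 pairs in all shared such stretches, among them RPL42 (11.7%) and RPL15 (3.3%). As deposited, 12 of the 75 features carried the name of the other copy, so that 12 names stood on 2 features each. These 12 features were named from their 12 nearest neighbours, of which 11 or 12 were the reference neighbours of the copy named here and at most 1 those of the other copy. Those described individually below are RPL1A, RPL15A, RPL19A and RPL42A. The reference lists 6 further large-subunit genes (RPL29, RPL39, RPL40A, RPL40B, RPL41A and RPL41B), which were not analysed here.

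The 75 genes had high levels. Their median was 939 FPKM over all 6 libraries, against 52.1 FPKM over all features on nuclear chromosomes, and 24 of the 100 highest nuclear features were among them. FPKM is the number of reads on a feature scaled by its length and by the reads of the library. In these tables the feature length ran from start to end, introns included, and 50 of the 75 genes have an intron within the coding sequence in the reference. RPL32 has none there, but its feature spans 946 bases against 393 coding bases, and it was counted as without intron. Genes with introns had a median of 767 FPKM and genes without 1898 FPKM, but with reads scaled to the coding length instead (coding FPKM) the medians were 1898 and 2060. With copies summed, the 42 proteins spanned from a coding FPKM of 1799 for RPL4 to 6463 for the acidic stalk proteins encoded by RPP2A and RPP2B. That span is 3.59-fold, with a median of 3447. The acidic stalk proteins encoded by RPP1A and RPP1B ranked next to the top at 5029. Each of these 2 values sums 2 distinct proteins, which are 59.6% (RPP1A and RPP1B) and 61.8% (RPP2A and RPP2B) identical. RPL19, of the tunnel exit, followed at 4829, a level that did not differ from RPL2 at 4811 beyond the spread within a strain (for RPL19 4302 ± 119 in IMF17 and 5357 ± 236 in IMX2109, SD, n = 3).

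**Figure D1:**
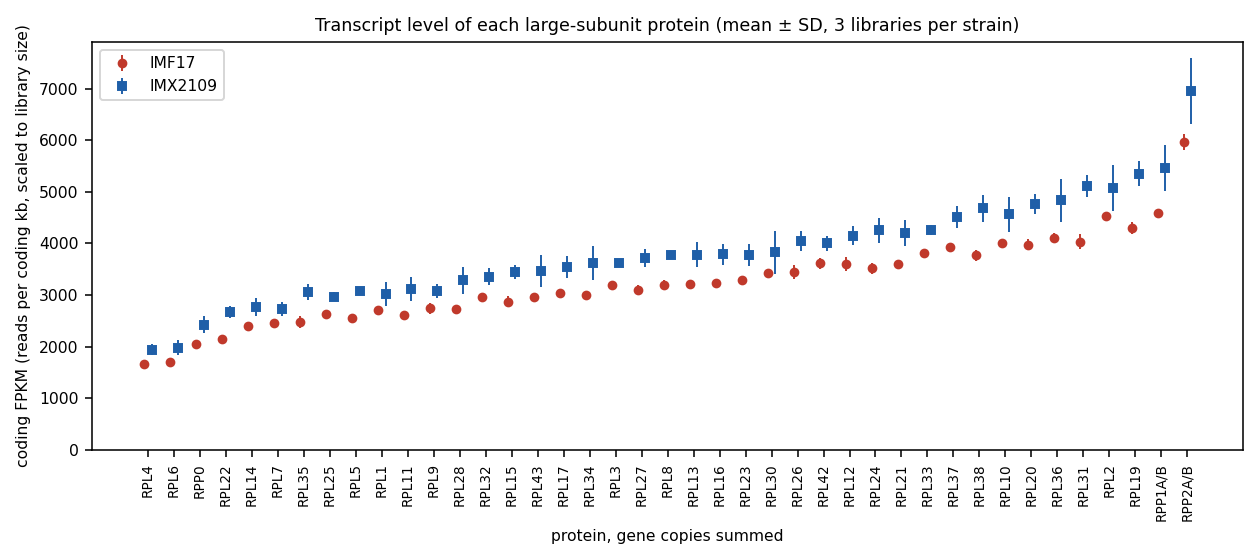
Transcript level of the large-subunit proteins reported here, with gene copies summed, in coding FPKM, that is reads per coding kilobase scaled to library size (mean ± SD, 3 libraries per strain, on a linear axis from 0). Levels rise from RPL4 to the summed products of RPP2A and RPP2B, and the IMF17 mean lies below the IMX2109 mean for every protein shown.

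On the deposited FPKM scale, 67 of the 75 genes were lower in IMF17 and 0 were higher. The test was limma on log2(FPKM + 1) over 5425 features with Benjamini-Hochberg adjustment at 0.05. Of all features tested, 25.3% were called lower and 12.1% higher. The median log2 fold change of the 75 genes was -0.23, against -0.07 over all features, and the largest fold was 1.31 and the median fold 1.17. In 66 of the 75 genes all 3 IMF17 libraries lay below all 3 IMX2109 libraries, an order found for 35.1% of all features. RNA was pooled from whole cultures, so fewer cells with a transcript and less of it per cell cannot be told apart.

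The size of this difference depended on what the reads were scaled to. Nuclear chromosomes here are the numbered native ones, so reads on the neochromosome are not among them. Reads on nuclear chromosomes made up 84.6 ± 0.324% of each IMF17 library and 90.4 ± 0.520% of each IMX2109 library (mean ± SD, n = 3). FPKM divides by the reads of all features. On the deposited scale 654 of all 5425 tested features were higher in IMF17, with log2 fold changes up to 13.79. Of the 5347 nuclear ones 578 were, with a maximum of 3.67. Rescaling to nuclear reads therefore also leaves out reads counted on the neochromosome. This holds for both strains, since IMX2109 reads were counted on the IMF17 assembly too. When FPKM was rescaled to reads on nuclear chromosomes, 31 of the 75 genes were lower and 1, RPL7B, was higher, with 8.83% of all features called lower and 18.9% higher. The median of the 75 genes was then -0.13 and that of all features 0.02. Rescaling by median ratio gave 24 lower genes (11.8% of all features) and a median of -0.16, and limma-voom on the recovered reads gave 35 (12.8%) and -0.16. Rescaled to nuclear reads, the libraries did not overlap in 37 genes that were lower in IMF17 (16.1% of all features) and in 2 that were higher (26.7%).

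Added up, the 75 genes took 7.97, 7.97 and 8.16% of the reads on nuclear chromosomes in IMF17 and 9.23, 8.90 and 8.22% in IMX2109. All 3 IMF17 libraries lay below all 3 IMX2109 libraries, but the third culture of IMX2109 lay only just above the highest IMF17 culture. The means were 8.03 ± 0.110% and 8.78 ± 0.514% (SD, n = 3), which gave p = 0.1 in a two-sided exact permutation test, a floor set by 3 libraries on each side. Without replicate 3 of IMX2109 the deposited scale gave 71 lower genes, with 23.1% of all features called lower, and a median of -0.28.

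**Figure D2:**
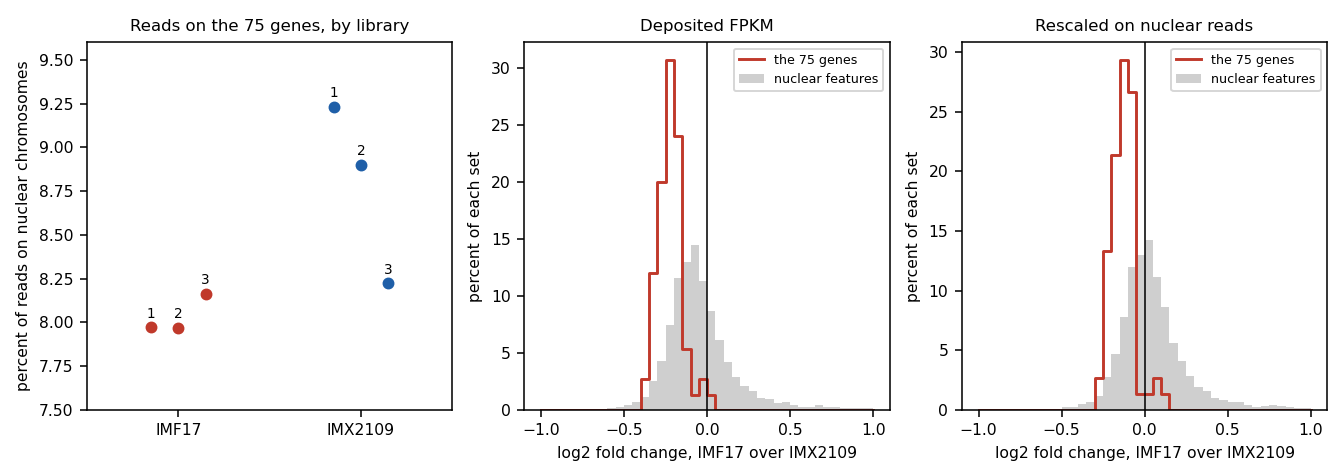
Left, percent of reads on nuclear chromosomes that fell on the 75 genes in each of the 6 libraries (replicate numbers beside the points; the axis does not start at 0). Middle and right, distribution of log2 fold changes of the 75 genes (red line) and of all nuclear features (grey bars) on deposited FPKM and after rescaling to nuclear reads, where the medians of the 75 genes were -0.23 and -0.13.

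RPP0, RPP1A, RPP1B, RPP2A and RPP2B encode the P proteins of the stalk that binds elongation factors, and RPL12A and RPL12B encode the protein at the stalk base. Of these 7 genes, 6 were lower in IMF17, against 25.3% of all features, with a median log2 fold change of -0.24. RPP0, the core protein to which the acidic P proteins attach (chromosome 12, 867645 to 868583 on the IMF17 assembly), measured 2051, 2004 and 2066 FPKM in IMF17 and 2566, 2453 and 2252 FPKM in IMX2109. No IMF17 library reached the lowest IMX2109 library, and the log2 fold change was -0.25 ± 0.05 (SE, limma adjusted p = 0.00259). RPP1A, an acidic P1 protein, measured 2601, 2651 and 2574 FPKM in IMF17 and 3382, 3204 and 2901 FPKM in IMX2109. Its libraries were equally separate, with a change of -0.27 ± 0.05 (SE, limma adjusted p = 0.00233).

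RPP1B, the second P1 protein, measured 801, 786 and 804 FPKM in IMF17 and 987, 952 and 832 FPKM in IMX2109. The lowest IMX2109 value was close to the IMF17 values, and the change of -0.21 ± 0.06 (SE, limma adjusted p = 0.0140) was not called without IMF17 replicate 2 or without IMX2109 replicate 2 (limma adjusted p = 0.0599 and 0.0603). RPP2A, an acidic P2 protein, measured 2187, 2062 and 2186 FPKM in IMF17 and 2679, 2530.0 and 2457 FPKM in IMX2109, all IMF17 libraries below all of IMX2109. Its log2 fold change was -0.25 ± 0.04 (SE, limma adjusted p = 0.00133). RPP2B, the other P2 protein and one of the highest of the 75 genes, measured 3831, 3726 and 3910.0 FPKM in IMF17 and 4853, 4553 and 3804 FPKM in IMX2109. Here IMX2109 replicate 3 lay among the IMF17 libraries, and the change of -0.20 ± 0.07 (SE, limma adjusted p = 0.0578) did not pass. Without that library it was -0.30 (limma adjusted p = 0.000248). Of the 5 P protein genes, RPP1A and RPP2A were called after rescaling to nuclear reads (limma adjusted p = 0.0408 and 0.0338), and none was by median ratio.

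The 5S particle is a preassembled unit of 5S rRNA with the products of RPL5, RPL11A and RPL11B. All 3 genes were lower on the deposited scale, by nearly the same amount, where 25.3% of all features were called lower. RPL5 measured 2486, 2559 and 2623 FPKM in IMF17 and 3112, 3103 and 3000.0 FPKM in IMX2109. The libraries were far apart for this gene, and the change of -0.27 ± 0.04 (SE, limma adjusted p = 0.000402) was called in all 16 alternative settings. RPL11A measured 1317, 1297 and 1377 FPKM in IMF17 and 1696, 1618 and 1467 FPKM in IMX2109 and changed by -0.26 ± 0.05 (SE, limma adjusted p = 0.00310). RPL11B measured 1256, 1240.0 and 1323 FPKM in IMF17 and 1649, 1522 and 1415 FPKM in IMX2109 and changed by -0.26 ± 0.05 (SE, limma adjusted p = 0.00335). Both RPL11 copies lay lower in every IMF17 library, but neither was called after rescaling to nuclear reads (limma adjusted p = 0.0517 for both), and the copies share more than 50% of their 100-base stretches.

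Of the proteins around the exit of the polypeptide tunnel, all 13 genes (RPL4, RPL17, RPL19, RPL26, RPL31 and RPL35 pairs and RPL25) were lower in IMF17. Their median was -0.25, with a range from -0.39 to -0.17, and 9 of the 13 were called lower after rescaling to nuclear reads. Of all features, 25.3% were called lower on the deposited scale and 8.83% after rescaling. RPL31B, a protein at the rim of the tunnel exit (chromosome 12, 992585 to 993515 on the IMF17 assembly), had the largest fall of the 75 genes. It measured 602, 619 and 646 FPKM in IMF17 and 831, 801 and 813 FPKM in IMX2109. Its IMX2109 libraries lay close together and well above IMF17, 622 ± 21.9 against 815 ± 14.8 FPKM (SD, n = 3), which is 1.31-fold lower in IMF17. The log2 fold change was -0.39 ± 0.04 (SE, limma adjusted p = 1.97e-05), and -0.29 when rescaled to nuclear reads (limma adjusted p = 0.000210). RPL31A, its partner copy, changed by -0.30 ± 0.05 (SE, limma adjusted p = 0.000874).

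RPL19A, whose protein reaches from the exit side to a bridge with the small subunit, measured 1353, 1400.0 and 1424 FPKM in IMF17 and 1844, 1717 and 1693 FPKM in IMX2109. The strains did not overlap, and the change was -0.33 ± 0.04 (SE, limma adjusted p = 0.000166). RPL19B, the more abundant copy, changed by -0.31 ± 0.04 (SE, limma adjusted p = 0.000304). At the other end of this role, RPL25, a docking protein for factors that meet the new chain, changed by -0.17 ± 0.04 (SE, limma adjusted p = 0.00531).

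The catalytic core and the tRNA sites showed a smaller median. Of 9 genes, 7 were lower, against 25.3% of all features, with a median of -0.17. After rescaling to nuclear reads 1 of the 9, RPL28, was called, a share close to the 8.83% of all features called lower there. RPL10, which reaches towards the catalytic centre and is added late in the cytoplasm, had the highest FPKM of the 75 genes and ranked 6 among nuclear features. It measured 3972, 3989 and 4045 FPKM in IMF17 and 4859, 4633 and 4198 FPKM in IMX2109. All IMF17 libraries lay below IMX2109, of which replicate 3 was the nearest, and the change was -0.19 ± 0.05 (SE, limma adjusted p = 0.0169). Leaving out IMF17 replicate 1, IMF17 replicate 2 or IMX2109 replicate 2 ended the call (limma adjusted p = 0.0774, 0.0721 and 0.0719). RPL3, a protein that extends to the peptidyl transferase centre, measured 3184, 3149 and 3256 FPKM in IMF17 and 3621, 3687 and 3556 FPKM in IMX2109, with a change of -0.18 ± 0.04 (SE, limma adjusted p = 0.00359). RPL28 measured 1107, 1130.0 and 1156 FPKM in IMF17 and 1454, 1389 and 1243 FPKM in IMX2109, and its change of -0.27 ± 0.05 (SE, limma adjusted p = 0.00298) was -0.17 when rescaled to nuclear reads (limma adjusted p = 0.0466).

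RPL42A and RPL1A, whose proteins contact the tRNA exit site, had some of the smallest log2 fold changes, and neither passed. RPL42A measured 511, 502 and 523 FPKM in IMF17 and 571, 572 and 510.5 FPKM in IMX2109. IMX2109 replicate 3 lay within the IMF17 range, and the change of -0.10 ± 0.05 (SE, limma adjusted p = 0.113) did not pass. Without that library the change was -0.16 (limma adjusted p = 0.00593). RPL1A, part of the mobile L1 stalk, measured 897, 889.5 and 947 FPKM in IMF17 and 1070.0, 1035 and 925 FPKM in IMX2109, with overlapping strains. Its change of -0.15 ± 0.05 (SE, limma adjusted p = 0.0516) passed without IMX2109 replicate 3 (limma adjusted p = 0.00261) and without IMF17 replicate 3 (limma adjusted p = 0.0497). RPL1A was called in 6 of the 16 alternatives, among them the pseudocount of 5 and the filter at 10 FPKM (limma adjusted p = 0.0497 and 0.0494).

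The other 43 genes encode proteins of the outer surface and of the rRNA-binding body. Of these, 38 were lower, against 25.3% of all features, with a median of -0.23, from -0.35 to 0.03. RPL24B, whose protein forms a bridge to the small subunit, measured 1480.0, 1572 and 1588 FPKM in IMF17 and 2091, 1992 and 1848 FPKM in IMX2109. Every IMF17 library lay well below every IMX2109 library, 1.28-fold lower in the mean, with a log2 fold change of -0.35 ± 0.05 (SE, limma adjusted p = 0.000322). RPL8B, a protein needed for early large-subunit assembly, measured 2095, 2116 and 2202 FPKM in IMF17 and 2681, 2717 and 2686 FPKM in IMX2109. The IMX2109 libraries of RPL8B were nearly equal, replicate 3 included, and the change was -0.33 ± 0.04 (SE, limma adjusted p = 4.9e-05).

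RPL34A measured 521, 526 and 530.4 FPKM in IMF17 and 716, 651 and 618 FPKM in IMX2109, a set in which the IMF17 libraries were nearly equal and the IMX2109 libraries spread. Its change was -0.33 ± 0.05 (SE, limma adjusted p = 0.000570). RPL22A, a non-essential protein of the outer surface, measured 729, 723 and 759 FPKM in IMF17 and 958, 918 and 876 FPKM in IMX2109. Strains were separate, and the change was -0.31 ± 0.04 (SE, limma adjusted p = 0.000213). RPL38, the smallest of the single-copy genes, changed by -0.31 ± 0.05 (SE, limma adjusted p = 0.000622). After rescaling to nuclear reads RPL24B, RPL8B, RPL34A, RPL22A and RPL38 stayed lower, at -0.26, -0.24, -0.23, -0.22 and -0.21.

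In the same group 4 genes had the smallest changes of all, and each is 1 copy of a pair. RPL15B, the lowest of the 75 genes, measured 68.4, 72.5 and 72.2 FPKM in IMF17 and 73.6, 67.01 and 75.01 FPKM in IMX2109. RPL8A measured 1026, 1040.0 and 1102 FPKM in IMF17 and 1048, 1083 and 1105 FPKM in IMX2109. RPL9B measured 1380.0, 1333 and 1436 FPKM in IMF17 and 1450.0, 1472 and 1385 FPKM in IMX2109. In all 3 genes the libraries of the strains overlapped. Their log2 fold changes were -0.02, -0.03 and -0.05 on the deposited scale, and 0.08, 0.07 and 0.04 when rescaled to nuclear reads (limma adjusted p = 0.309, 0.263 and 0.524).

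RPL7B measured 260.3, 266 and 271 FPKM in IMF17 and 264, 266 and 249 FPKM in IMX2109. The strains overlapped, and its change of 0.03 ± 0.04 (SE, limma adjusted p = 0.558) was the only positive value among the 75 genes on the deposited scale. Rescaled to nuclear reads it was 0.13 (limma adjusted p = 0.0407), the 1 rise among the 75 genes, on a scale where 18.9% of all features were called higher. By median ratio and with limma-voom the change of RPL7B was 0.10 in each and not called (limma adjusted p = 0.165 and 0.156). RPL30, a single-copy gene whose product represses the splicing of its own transcript, measured 1063, 1044 and 1048 FPKM in IMF17 and 1260.0, 1233 and 1030.0 FPKM in IMX2109. IMX2109 replicate 3 was the lowest of all 6 libraries, and the change of -0.15 ± 0.07 (SE, limma adjusted p = 0.0876) did not pass. Without that library it was -0.25 (limma adjusted p = 0.000279).

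**Figure D3:**
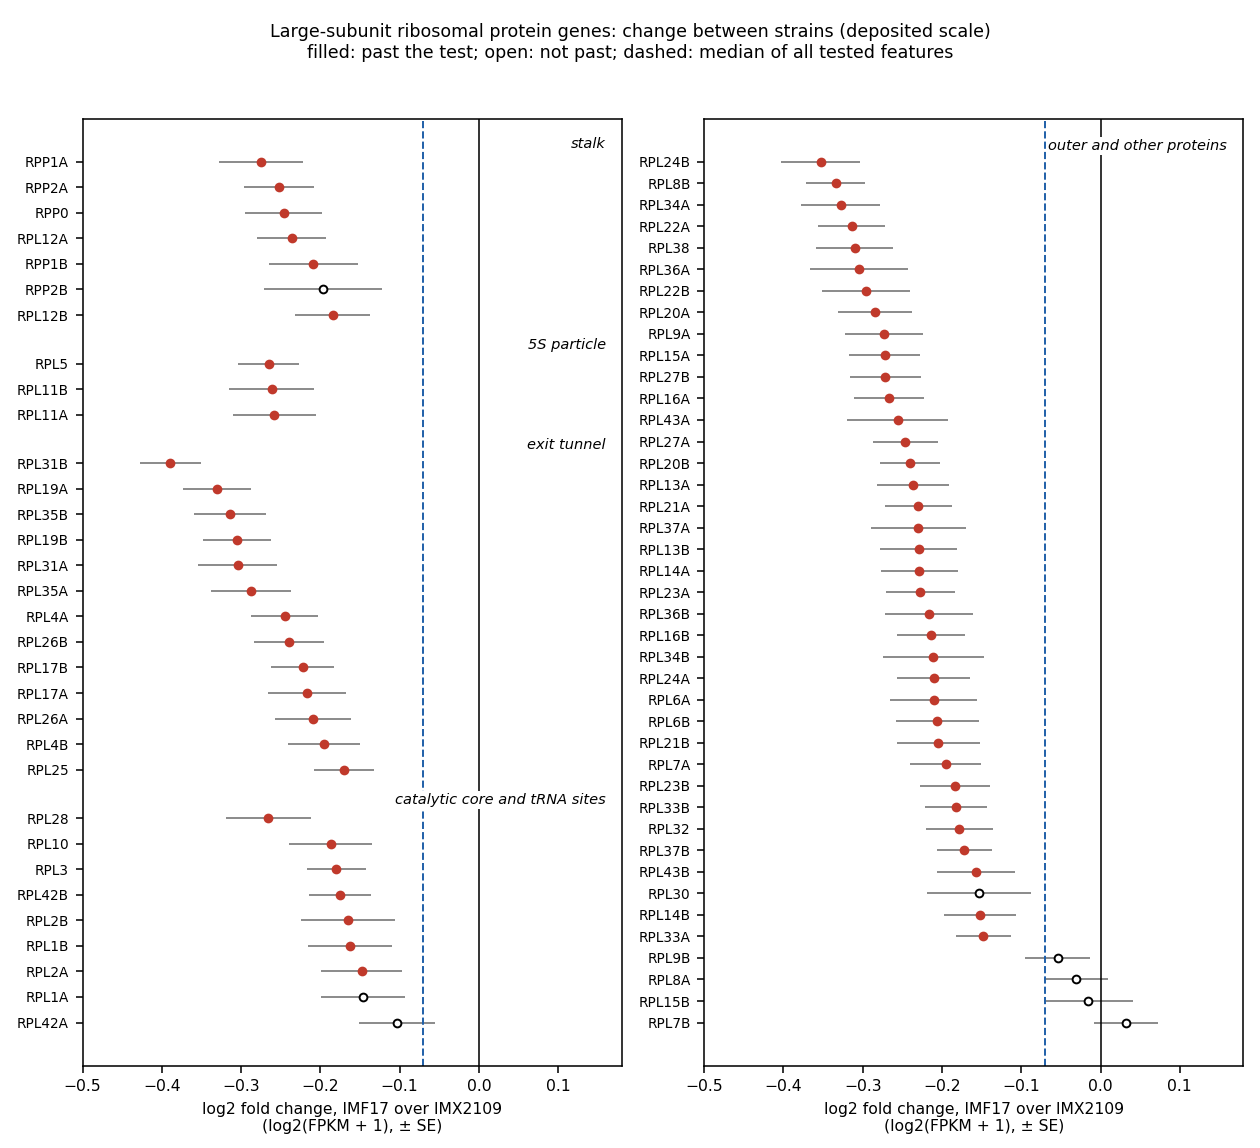
Log2 fold change of the genes reported here, IMF17 over IMX2109, on log2(FPKM + 1) (points with SE), ordered within role. Filled points passed limma at an adjusted p of 0.05, open points did not, and the dashed line is the median of all tested features, -0.07.

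Across all settings tried, 24 genes were called lower in every one of the 16 alternatives, as were 9.02% of the 4965 features tested in each of them. Among the 24 were both copies of RPL19, RPL20, RPL22, RPL27, RPL31 and RPL35, and the single-copy genes RPL5 and RPL38. By copy number, of the 9 single-copy genes 8 were lower (median -0.19), of 33 A copies 30 (median -0.24) and of 33 B copies 29 (median -0.21). The more abundant copy was lower in 32 of 33 pairs and the less abundant in 27 of 33, each with a median of -0.23. Genes with introns were lower in 47 of 50 and genes without in 20 of 25, on a scale where 25.3% of all features were called lower. After rescaling to nuclear reads, with 8.83% of all features lower, these counts were 21 of 50 and 10 of 25. The more abundant copy was then lower in 13 of 33 pairs and the less abundant in 15. Differences between these groups were not tested.

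Copies of 1 protein were then compared with each other. The log2 ratio of the A to the B copy within a library does not depend on how libraries are scaled, apart from the pseudocount of 1 added to each. It was fitted with limma over all 54 pairs of features in the tables named A and B, of which 33 encode large-subunit proteins and 20 small-subunit proteins. Of the 54 pairs, 7 (13.0%) differed between strains, and 5 of these 7 were large-subunit pairs, RPL7, RPL8, RPL9, RPL15 and RPL24. The count of 5 became 11 without IMX2109 replicate 3, 9 without IMX2109 replicate 1 and 12 with the replicate number as a block. Counts over all 54 pairs in those fits are not given here, so these increases cannot be read as particular to large-subunit pairs. In 14 of the 33 pairs the libraries of the strains did not overlap, against 38.9% of the 54 pairs. Both copies were lower on the deposited scale in 26 pairs, and in the other 7 pairs 1 copy was.

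RPL8 had the largest difference. Its log2 ratio of A to B was -1.03, -1.02 and -0.998 in IMF17 and -1.35, -1.33 and -1.28 in IMX2109. RPL8A thus made up 33.1 ± 0.254% in IMF17 and 28.6 ± 0.523% in IMX2109 of the pair's FPKM (SD, n = 3), higher in every IMF17 library. The difference was 0.30 ± 0.02 (SE, limma adjusted p = 8.63e-06), and it ranged from 0.29 to 0.32 over 11 alternatives, all called. These copies share no 100-base stretch.

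RPL9, whose protein sits near the factor-binding site, went the other way. RPL9A measured 1362, 1303 and 1419 FPKM in IMF17 and 1708, 1689 and 1541 FPKM in IMX2109, apart in every library, whereas RPL9B overlapped. The A to B ratio was -0.02, -0.03 and -0.02 in IMF17 and 0.24, 0.198 and 0.15 in IMX2109. RPL9A supplied 49.6 ± 0.146% in IMF17 and 53.4 ± 0.714% in IMX2109 of the pair, so that its copies were level in IMF17 and RPL9A led in every IMX2109 library. The difference was -0.22 ± 0.02 (SE, limma adjusted p = 7.48e-05). Of the 100-base stretches of RPL9, 2.31% were shared between copies.

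RPL7A measured 777, 753 and 781 FPKM in IMF17 and 910.5, 912 and 827 FPKM in IMX2109 and changed by -0.20 ± 0.04 (SE, limma adjusted p = 0.00587). RPL7, an rRNA-binding protein, had A to B ratios of 1.57, 1.501 and 1.53 in IMF17 and 1.78, 1.77 and 1.73 in IMX2109. RPL7A supplied 74.4 ± 0.487% in IMF17 and 77.3 ± 0.367% in IMX2109, with no overlap of the strains. The difference was -0.23 ± 0.04 (SE, limma adjusted p = 0.00157). Both RPL7 genes have 2 introns, and 37.7% of their 100-base stretches were shared, so the split of reads is less certain than for RPL8.

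RPL15 was the most unequal pair. RPL15A measured 2688, 2874 and 2842 FPKM in IMF17 and 3523, 3378 and 3251 FPKM in IMX2109, and its ratio to RPL15B was 5.28, 5.29 and 5.28 in IMF17 and 5.56, 5.63 and 5.42 in IMX2109. RPL15A exceeded RPL15B by 43.3-fold in FPKM over all libraries, and the IMX2109 ratios spread more widely than those of IMF17. The difference was -0.26 ± 0.05 (SE, limma adjusted p = 0.00539), and it was not called without IMF17 replicate 3 (-0.26, limma adjusted p = 0.0582).

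RPL24A measured 1921, 1960.0 and 2026 FPKM in IMF17 and 2383, 2319 and 2140.0 FPKM in IMX2109, lower in each IMF17 library. RPL24 had A to B ratios of 0.38, 0.32 and 0.35 in IMF17 and 0.19, 0.22 and 0.21 in IMX2109. RPL24A, the higher copy, supplied 56.01 ± 0.499% in IMF17 and 53.6 ± 0.271% in IMX2109, higher in every IMF17 library although both copies were lower. The difference was 0.14 ± 0.02 (SE, limma adjusted p = 0.00157). RPL7, RPL8, RPL9 and RPL24 were called in all 11 alternatives.

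**Figure D4:**
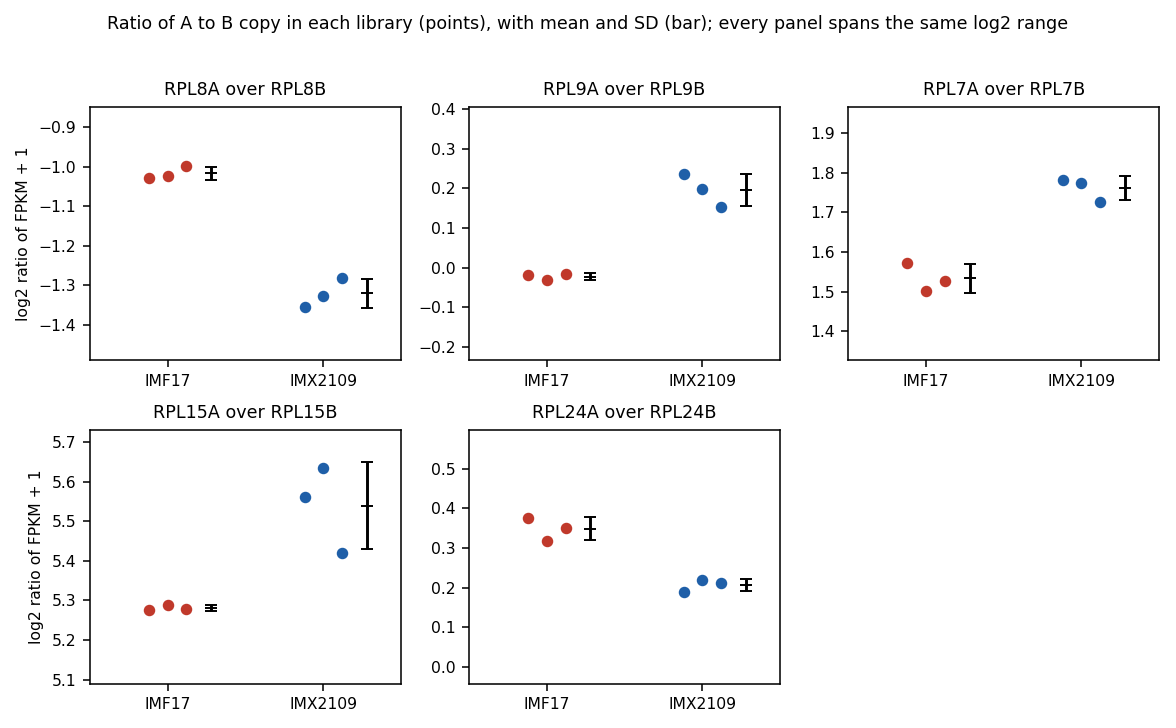
Log2 ratio of the A to the B copy in each of the 6 libraries (points) with mean and SD (bars) for the 5 pairs whose ratio passed limma, every panel spanning the same log2 range. The strains do not overlap in any of the 5 panels, and the ratio was higher in IMF17 for RPL8 and RPL24 and lower for RPL9, RPL7 and RPL15.

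The remaining 28 pairs did not pass. RPL34, a pair of nearly equal copies, had A to B ratios of -0.12, -0.14 and -0.14 in IMF17 and -0.05, -0.05 and 0.05 in IMX2109. Its difference was -0.12 ± 0.03 (SE, limma adjusted p = 0.0513), and it passed with the replicate block (limma adjusted p = 0.0135), without IMX2109 replicate 1 (limma adjusted p = 0.0201) and without IMX2109 replicate 3 (limma adjusted p = 0.0413). RPL36, in which the B copy was 5.42-fold higher in FPKM and 4.44-fold higher in reads, had A to B ratios of -2.42, -2.56 and -2.46 in IMF17 and -2.37, -2.41 and -2.41 in IMX2109. Every IMF17 ratio lay below every IMX2109 ratio, but the difference of -0.09 ± 0.04 (SE, limma adjusted p = 0.118) passed only with the replicate block (limma adjusted p = 0.043) or without IMX2109 replicate 3 (limma adjusted p = 0.0393). RPL11, the pair with the least difference between strains among those named, had A to B ratios of 0.07, 0.06 and 0.06 in IMF17 and 0.04, 0.09 and 0.05 in IMX2109. The strains overlapped, with a difference of 0.00 ± 0.02 (SE, limma adjusted p = 0.914).

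**Figure D5:**
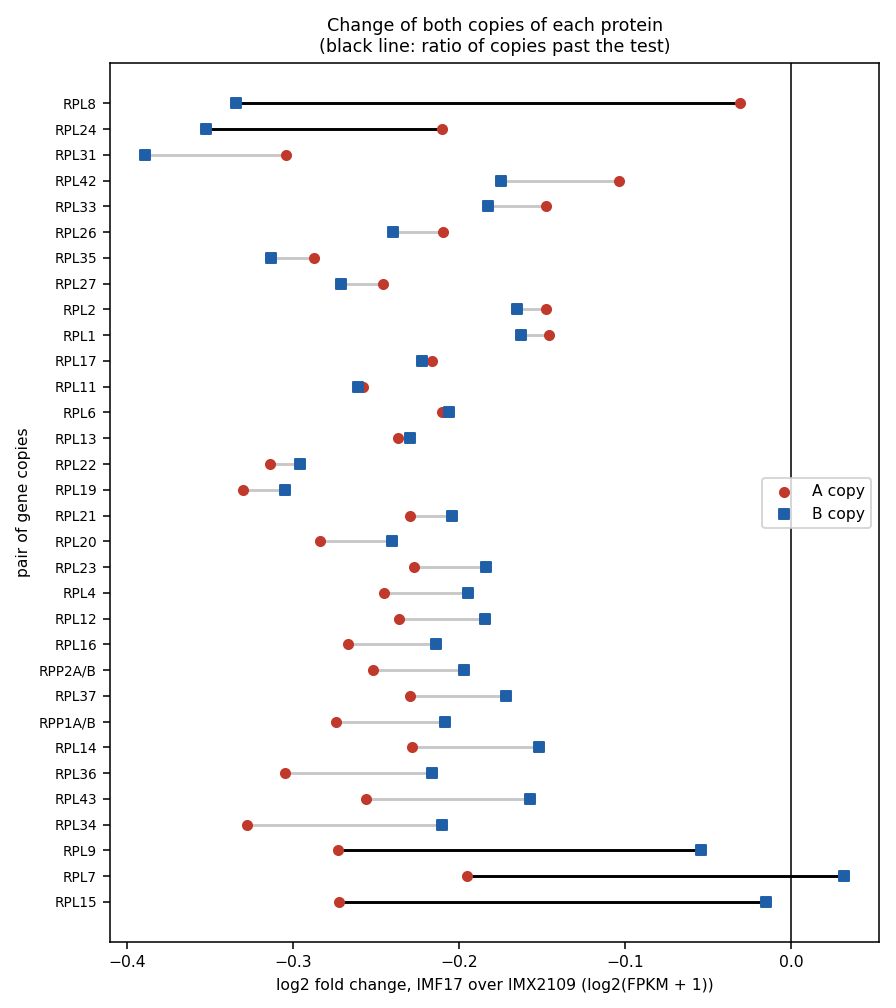
Log2 fold change of the A copy (circles) and the B copy (squares) of the pairs reported here, IMF17 over IMX2109, on log2(FPKM + 1). Black lines join the copies of the 5 pairs whose ratio passed limma, and in RPL8, RPL9, RPL7 and RPL15 the copy on the right lies between -0.05 and 0.03.

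When the copies of a protein were summed before the fit, 41 of the 42 proteins were lower, with 24.9% of features called lower in that fit, and RPL30 was not called. The median was -0.22 and the range from -0.34 to -0.14. RPL31 and RPL19 had the largest summed falls, at -0.34 ± 0.04 and -0.32 ± 0.04 (SE, limma adjusted p = 0.000135 and 0.00027). RPL7 had the smallest, at -0.14 ± 0.04 (limma adjusted p = 0.0235). For RPL8 the sum fell by 0.24 on the log2 scale, although RPL8A alone was not called.

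The DNA before the start codon was searched for a Rap1-like element, since Rap1 binds many of these promoters. The first motif tried, which reads CACCC followed directly by NNACA and was searched on both strands of the 500 bases before the start codon, was found at 16 of the 75 genes (21.3%) and at 133 of 6006 reference genes (2.21%). After that count was seen a second motif, CANCC followed directly by NTACA, was searched in the same way, and it was found at 23 of the 75 genes (30.7%) and at 146 of the 6006 genes (2.43%). Some matches meet both motifs. With the second motif, genes that held it had a median log2 fold change of -0.23 and the 52 that did not had -0.22. A match describes letters and not binding. Stretches of 40 bases around the second motif (capitals) are shown, on the strand that reads as the motif, for a gene with a large fall, one with a small change and both copies of RPL36 (RefSeq R64).
RPL22A: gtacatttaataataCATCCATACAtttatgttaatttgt
RPL42A: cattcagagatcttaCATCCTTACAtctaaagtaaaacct
RPL36A: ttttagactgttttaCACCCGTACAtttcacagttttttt
RPL36B: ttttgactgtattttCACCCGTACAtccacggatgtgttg

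The motif lay 218, 361, 153 and 305 bases before the start codons of RPL22A, RPL42A, RPL36A and RPL36B. With the motif in both, the log2 fold change was -0.31 for RPL22A and -0.10, not called, for RPL42A.

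Genes that act on large-subunit proteins were read from the same fit. In that fit 25.3% of all features were called lower and 12.1% higher, with a median of -0.07. Of 12 tested regulators of ribosomal protein genes, 1 was lower and 0 higher, and the median was -0.08. FHL1, a promoter-bound regulator, measured 21.7, 23.3 and 23.3 FPKM in IMF17 and 24.03, 25.1 and 28.1 FPKM in IMX2109, with a change of -0.17 ± 0.07 (SE, limma adjusted p = 0.1) that did not pass although the strains did not overlap. SFP1, a growth-responsive activator, had 0.00 ± 0.05 (SE, limma adjusted p = 0.982), IFH1 had -0.08 ± 0.09 (SE, limma adjusted p = 0.516) and RAP1 had -0.08 ± 0.06 (SE, limma adjusted p = 0.345). The 1 lower gene was UTP22, which links rRNA processing to ribosomal protein genes, at 51.8, 53.4 and 59.5 FPKM in IMF17 and 58.6, 62.5 and 70.6 FPKM in IMX2109. Its libraries overlapped, and the change of -0.21 ± 0.08 (SE, limma adjusted p = 0.0462) was not called without IMX2109 replicate 3, IMX2109 replicate 2, IMF17 replicate 1 or IMF17 replicate 2 (limma adjusted p = 0.132, 0.0883, 0.16 and 0.147). After rescaling to nuclear reads none was lower, and the repressor STB3 was higher (limma adjusted p = 0.0367). On that scale 8.83% of all features were called lower and 18.9% higher.

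Dedicated chaperones and modifying enzymes of large-subunit proteins were lower in 11 of 15, against 25.3% of all features, with a median of -0.23. SYO1, which carries Rpl5 and Rpl11 into the nucleus together, measured 195, 192 and 207 FPKM in IMF17 and 254, 232 and 221 FPKM in IMX2109. It was lower in every IMF17 library, and the change was -0.25 ± 0.05 (SE, limma adjusted p = 0.00462). RRB1, the chaperone of Rpl3, changed by -0.24 ± 0.06 (SE, limma adjusted p = 0.0101) and ACL4, the chaperone of Rpl4, by -0.23 ± 0.06 (SE, limma adjusted p = 0.0115). SQT1, the chaperone of Rpl10, had -0.07 ± 0.07 (SE, limma adjusted p = 0.507) with overlapping strains.

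LOC1 and PUF6, which together assist Rpl43, had the largest falls of this list, at -0.34 ± 0.09 (SE, limma adjusted p = 0.00939) and -0.29 ± 0.08 (SE, limma adjusted p = 0.0191). BCP1, the chaperone of Rpl23, changed by -0.28 ± 0.05 (SE, limma adjusted p = 0.00201). RPF2 and RRS1, which place the 5S particle, changed by -0.27 ± 0.09 (SE, limma adjusted p = 0.0304) and -0.23 ± 0.07 (SE, limma adjusted p = 0.0208). HPM1, which methylates a histidine of Rpl3, changed by -0.26 ± 0.05 (SE, limma adjusted p = 0.00208), and the lysine methyltransferases RKM3 and RKM4 by -0.20 ± 0.06 (SE, limma adjusted p = 0.0283) and -0.18 ± 0.06 (SE, limma adjusted p = 0.0357). Leaving out a single library ended the call for PUF6, RPF2, RRS1, RKM3 and RKM4, among them IMF17 replicate 1 for each (limma adjusted p = 0.0838, 0.104, 0.0751, 0.115 and 0.137) and IMX2109 replicate 3 for all but RKM3 (limma adjusted p = 0.0677, 0.102, 0.07 and 0.073). After rescaling to nuclear reads 3 of the 15 were lower, BCP1, LOC1 and HPM1, where 8.83% of all features were called lower.

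Late maturation and export factors of the large subunit were lower in 13 of 20, with a median of -0.24, and in 5 of 20 after rescaling to nuclear reads. Of all features, 25.3% were called lower on the deposited scale and 8.83% after rescaling. Leaving out a single library ended the call for ARX1, BUD20, ECM1, MRT4 and TIF6, and gave one to AFG2, MEX67, NOG1 and NOG2. YVH1, which releases an assembly factor from the stalk site, measured 50.8, 54.9 and 56.3 FPKM in IMF17 and 64.99, 68.95 and 72.8 FPKM in IMX2109 and changed by -0.35 ± 0.06 (SE, limma adjusted p = 0.00127). ALB1 changed by -0.34 ± 0.06 (SE, limma adjusted p = 0.00162), MTR2 by -0.21 ± 0.04 (SE, limma adjusted p = 0.00238) and the GTPase LSG1 by -0.34 ± 0.07 (SE, limma adjusted p = 0.00327). Translation elongation and initiation factors were lower in 7 of 12 features, with a median of -0.13, and in 4 of 12 after rescaling. Here a single library left out ended the call for YEF3 and a feature named EFT1. It gave one to HYP2 and a feature named TEF1. TEF4, a subunit of an elongation factor complex, had the largest fall among them, at -0.34 ± 0.04 (SE, limma adjusted p = 5.17e-05), followed by TIF11 at -0.30 ± 0.05 (SE, limma adjusted p = 0.000843). A feature named TIF1 fell by 0.25 (limma adjusted p = 0.000371), but 2 features carry that name. The cap-binding protein CDC33 changed by -0.24 ± 0.04 (SE, limma adjusted p = 0.000425).

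For comparison, 41 of 51 tested small-subunit ribosomal protein features were lower, with a median of -0.22. Of the genes of the mitochondrial large subunit 13 of 32 were, with a median of -0.10, and of all features 25.3%. Small-subunit genes took 5.79 ± 0.0768% of the nuclear reads of IMF17 and 6.28 ± 0.368% of those of IMX2109 (SD, n = 3; exact permutation p = 0.1, the smallest possible). Differences between these lists and the large-subunit genes were not tested. RPP1, the RNase P subunit, measured 57.1, 61.3 and 64.1 FPKM in IMF17 and 70.6, 68.6 and 67.2 FPKM in IMX2109, with a log2 fold change of -0.18 ± 0.06 (SE, limma adjusted p = 0.0281) that was not called without IMF17 replicate 1 or 2 or without IMX2109 replicate 1 or 2 (limma adjusted p = 0.11, 0.0779, 0.0693 and 0.0825).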

How the data were processed

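The deposited values are FPKM, which the authors made from counted reads, with 1 table per library. The submitters' processing notes name DESeq2, edgeR, featureCounts, SAMtools and STAR 2.5.4a. What each did, with which settings, and how strand and ambiguous reads were handled is not given in the sources used. Per the file headers, features lie on an assembly of IMF17, on which reads of both strains were counted. FPKM times length gave whole reads for 100% of values within 0.01 reads, so reads were recovered, with 14696540 to 18801158 per library. The labels give no batch.

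Groups and replicate numbers came from sample titles. Features with a mean of at least 1 FPKM were tested with limma 3.58.1 (two-sided, with a trend in the prior variance, R 4.3.3) on log2(FPKM + 1), IMF17 against IMX2109, with Benjamini-Hochberg adjustment over all features called at 0.05. This scale understates the changes of low genes, and folds are ratios of mean FPKM. The fit of A to B ratios was adjusted over 54 pairs, and shares were compared by exact permutation. Tests were also run on simulated reads in which genes varied independently. Such reads do not check calls under a shift shared by many genes of a library. Count models (edgeR, DESeq2) were not run, since the deposited values are FPKM. The recovered reads were fitted with limma-voom instead.

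The members, lists and roles were chosen with earlier results of these data known. Genes and pairs (as genes or as A to B ratios) given in every library were the 5 P proteins, the 6 largest falls, the 6 smallest changes, the 6 pairs with the largest ratio difference, the 3 most and 3 least unequal pairs, and the highest and lowest gene. 1 of these pairs is not reported here, and stays in the counts. Of related lists, regulators and chaperones past the test and up to 4 others by smallest p were named. RPL3, RPL5, RPL19B, RPL25, RPL28, RPL30, RPL31A and RPL38, and related genes that did not pass, were added after their values were seen, as was the second promoter motif. The 16 alternatives for single genes were other pseudocounts (0.1 and 5), filters, scalings, limma-voom, robust variance, the replicate block and leaving out each library. The fit with copies summed was run as well and is not among the 16. Names and sequences came from RefSeq R64, on which 5497 features matched by locus tag. Software was Python 3.11.15 with numpy 2.4.6, pandas 2.3.3 and, for plots, matplotlib 3.10.9.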

Additional observations from a re-analysis of the deposited data

How the results depend on the processing

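The count of lower genes, 67 of 75, was 24 by median ratio, 31 on nuclear reads, 35 with limma-voom and 41 of 42 proteins with copies summed, and was 56 to 71 when 1 library was left out. Among the fits without 1 library, a share of all features is given only for that without IMX2109 replicate 3, 23.1% lower. The count of higher genes, 0, was 1 on nuclear reads and 0 in each of the 6 fits without 1 library. The median log2 fold change, -0.23, was -0.132 on nuclear reads and -0.185 to -0.277 without 1 library. The difference in the share of nuclear reads, -0.750 percentage points, was -0.527 to -1.03 without 1 library. Leaving out 1 library gave 4 to 11 large-subunit pairs with a changed ratio, against 5, with 9 without IMX2109 replicate 1 and 11 without IMX2109 replicate 3. Counts over all 54 pairs in those fits are not given. Of the named genes' values in alternatives, 39 lost a call, 11 gained one and 414 did neither, and none reversed a called direction. The cause of these shifts was not tested.

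The replicate number does not pair the libraries by the data: deviations of same-numbered libraries correlated at 0.0954, -0.0517 and 0.137. With the replicate number as a block, 70 genes were lower and 12 large-subunit pairs had a changed ratio. The shares of all features and of all 54 pairs called in that fit are not given here. These counts therefore cannot be read as particular to the large-subunit genes.

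With 3 libraries a strain, the share of reads could not reach a permutation p below 0.1.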
